A study of Mus musculus with 35 samples.

Results

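Microglia, the resident immune cells of the brain, were examined here in the state in which none of 6 activation genes was detected. The members were chosen nucleus by nucleus from measured counts of unique molecular identifiers (UMIs, each marking 1 RNA molecule). A nucleus counted as microglial when it had 500 or more detected genes, 5 or more UMIs from at least 3 of the 8 genes Csf1r, Inpp5d, Dock8, Ikzf1, Ptprc, Runx1, Ly86 and Cd84, and 0.2% or more of its UMIs in them. It also had at most 2 UMIs of the border macrophage genes Mrc1, F13a1 and Cd163 together and at most 3 of the neuronal genes Snap25 and Rbfox3. A member had in addition no UMI of Axl, Itgax, Csf1, Lpl, Igf1 or Bcar3, genes that rise in microglia near disease lesions. By this rule 6312 nuclei were members, 64.8% of the 9737 microglia and 4.42% of the 142840 barcodes with 500 or more genes, of 144991 barcodes in all. The levels of the 19 genes that the rule reads are therefore no finding, and they were left out of the tests.

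Nuclei came from frozen hippocampus of C57BL/6 mice aged 9 months and were sequenced in 14 droplet libraries. WT (3 libraries) carried neither change. PS19 (3) makes mutant human tau from a transgene that the Prnp (prion protein) promoter drives, chiefly in neurons. CLEAR (4) is understood to carry a mutated CLEAR element, the DNA site read by the transcription factor TFEB, in Atp6v1h, a gene of the lysosomal proton pump (V-ATPase). CLEAR_PS19 (4) carries both, and values given as "with both" are those of its libraries. Every group had 1 female library and otherwise males, so female sex and single libraries cannot be told apart within a group. The labels do not say that libraries came from separate animals, so p-values measure the spread between libraries.

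In the healthy brain, microglia hold a homeostatic program of surveillance genes such as P2ry12, Siglech, Selplg and Sall1, which is maintained by TGF-beta signalling. In mouse models of neurodegeneration, part of the population changes to a disease-associated state that lowers those genes and raises Apoe, Cd9, Lyz2, cathepsins and, later, Axl, Itgax, Lpl and Csf1. Another part shows an interferon state, in which interferon signalling raises antiviral genes and the antigen-presenting proteins of MHC class I.

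The members gave 700135 to 1422576 UMIs per library, from 288 to 726 nuclei. The median member had 1104.5 to 2324 UMIs depending on the library. Pairs of libraries shared 10 to 70 barcodes and at most 1 microglial barcode. CLEAR replicates 1 and 2 were closer than replicates of a group usually were. Over genes, the mean ratio of their squared difference to the variance between nuclei was 1.007 in the members, and 5.06% of genes lay beyond the 95% limit, so the pair differed by no more than sampling noise. CLEAR_PS19 replicates 1 and 2 had a ratio of 1.176 and 6.73% of genes beyond the limit, where other pairs within a group had 1.62 to 5.289. In nuclei chosen by UMIs of Prox1 alone, a gene of dentate granule neurons, both pairs differed slightly beyond sampling noise. Their ratios were 1.238 and 1.261, where other pairs within a group had 5.114 to 13.098. Such ratios do not show whether the libraries of a pair came from separate animals. Each was kept as separate libraries, and the main results are also given with each pair counted as 1 sample. These 4 libraries also stood apart on the first principal component of the members, at -28.55 to -17.46 against -3.79 to 17.35 for the other 10, and WT and PS19 have no such libraries.

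Within the members, nuclei with T cell RNA were found beside microglia, and Ptprc, Dock8 and Ikzf1 of the rule are also expressed by T cells. Of the members, 83 had 2 or more UMIs of 10 T cell markers (Cd3e, Trac, Skap1, Themis and others): 49 in PS19, 21 in CLEAR_PS19 and 13 in WT and CLEAR together. The share was highest in PS19 replicate 2, at 8.02% of members. Among these 83 nuclei, 57 had at most 1 UMI of 6 microglial genes together, among them P2ry12, Siglech, Selplg, Cx3cr1 and Tmem119. In all, 158 members had at most 1 such UMI. The most were in CLEAR_PS19 replicate 4 (34), PS19 replicate 2 (29), PS19 replicate 1 (24) and CLEAR_PS19 replicate 2 (19). Those without T cell RNA stay in every result. The 10 markers summed to 13.6 to 21.2 CPM (counts of a gene scaled to a common library total) over the WT libraries, 52.7 to 423.9 in PS19, 18.7 to 39.0 in CLEAR and 12.7 to 235.7 in CLEAR_PS19, with 6 to 8 of the 10 at 0 in WT and none to 3 at 0 in PS19. Results are given without these nuclei where that changes them.

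The microglial label was checked against its markers after thinning nuclei to 1000 UMIs and leaving out those with fewer. Siglech, a sialic-acid receptor of microglia, had a UMI in 36.9% to 74.4% of members and in 0.0% to 0.431% of dentate granule neurons of the same libraries. Selplg, the P-selectin ligand, was detected in 24.8% to 59.4% of members and at most 0.406% of granule neurons. P2ry12, the ADP receptor that steers microglial processes, was detected in 41.3% to 74.7% of members and, less specifically, in 8.47% to 20.9% of granule neurons. Outside the rule, the genes that stood highest over the other nuclei were Siglech (1045 against 2.92 CPM), Gm2629, Arhgap45, Gm10790, Gm50035, Csf3r, Itgam, Selplg, Slco2b1 and Bin2. The label "without activation genes" covers only the 6 genes of the rule. Apoe, another activation gene, had a UMI in 14.5% to 77.3% of members and in 3.29% to 13.4% of granule neurons. The members are therefore called 6-gene-negative microglia. Of 31 other activation genes tested, 21 rose with tau averaged over backgrounds, where 2.75% of all genes did. None passed in CLEAR_PS19 against CLEAR, and the count is partly set by the filter on low counts, as described below. Just outside the rule lay 148 nuclei with 4 microglial UMIs, against 231 members with 5, and 1229 microglia with exactly 1 activation UMI, against 2196 with 2 or more.

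The first question was how many microglia stayed free of the 6 genes when the tau transgene was present. By the rule itself, members were 92.4% to 94.1% of microglia in the WT libraries and 26.6%, 22.4% and 66.4% in PS19. The tau difference averaged over backgrounds was then -37.5 points. Detection depends on depth, so each microglial nucleus was thinned to 1000 UMIs and nuclei with fewer were left out. This kept 429 of 641 microglia in CLEAR_PS19 replicate 4 and 581 of 769 in CLEAR_PS19 replicate 2. After thinning, the 6-gene-negative share was 96.9%, 96.7% and 97.8% of microglia in the WT libraries, and 47.0%, 43.7% and 77.5% in PS19. In CLEAR it was 97.3%, 97.6%, 96.7% and 95.4%, and in CLEAR_PS19 88.3%, 87.1%, 63.6% and 87.2%. All 7 libraries with tau lay below all 7 without it. The group means were 97.2% ± 0.57 in WT (SD, n = 3), 56.1% ± 18.6 in PS19 (n = 3), 96.7% ± 0.98 in CLEAR (n = 4) and 81.6% ± 11.96 in CLEAR_PS19 (n = 4). With the transgene the share was 28.1 percentage points lower averaged over both backgrounds, 41.1 points lower in PS19 than in WT and 15.2 points lower in CLEAR_PS19 than in CLEAR (9.2 points lower without CLEAR_PS19 replicate 3). The averaged difference was -29.0 points with each close pair as 1 sample and -30.8 without the 4 libraries. With the CLEAR mutation the share was 12.5 points higher on average (-0.43 without tau and 25.5 with it). It was 9.10 points higher without the 4 libraries and 6.34 within library groups (the 4 libraries, the females and the rest). These shares count the UMIs of the rule's own genes, so they are a description and no test is given.

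As a share of all barcodes with 500 or more genes, the groups overlapped before thinning. The 6-gene-negative microglia made up 3.93% ± 0.61 in WT, 4.09% ± 1.64 in PS19, 4.53% ± 0.63 in CLEAR and 4.98% ± 0.86 with both. The tau difference was 0.302 points and the CLEAR difference 0.743 points, also without a test. With microglia thinned to 1000 UMIs the group means were 3.97%, 6.15%, 4.41% and 5.03%. The tau difference was then 1.40 points, against 0.528 when thinned to 2000 UMIs. These thinned shares are of barcodes with at least that many UMIs. They are not shares of members, since they include microglia whose UMIs of the 6 genes were lost in thinning. PS19 replicate 1 had 556 nuclei counted this way at 1000 UMIs against 318 members, and WT replicate 1 had 377 against 375. At 1000 UMIs PS19 (5.03% to 6.75%) lay above WT (3.436% to 4.496%), while CLEAR_PS19 (3.43% to 6.77%) overlapped CLEAR (3.97% to 5.22%). Microglia with 1 or more of the 6 genes made up 0.273% ± 0.031, 7.63% ± 4.49, 0.286% ± 0.073 and 2.21% ± 2.54 of barcodes in the same order. Reading only Axl, Itgax and Lpl as activation genes, the tau difference in the share of all barcodes was 1.59 points. These are shares of recovered nuclei, and the number of cells in the tissue was not measured.

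**Figure D1:**
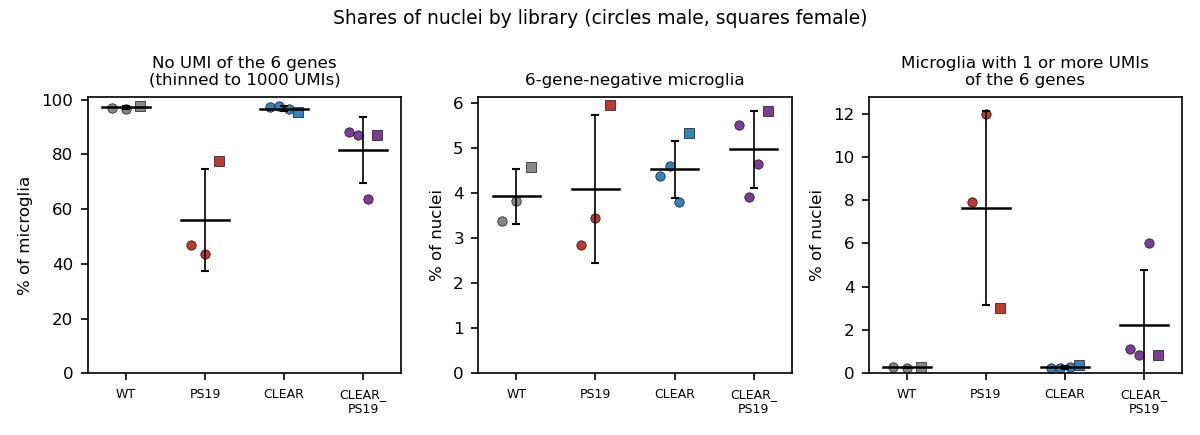
Percent of microglia without the 6 genes after thinning to 1000 UMIs, and percent of all barcodes that were 6-gene-negative and activated microglia, by group; each point is a library (circles male, squares female), lines and bars are mean ± SD. The share among microglia is 95.4% or more in all 7 libraries without tau and 88.3% or less in all 7 with tau. The 6-gene-negative share of all barcodes, without thinning, overlaps between groups. The activated share of all barcodes is 0.391% or less without tau and 0.843% or more with tau.

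The share depended on depth, most in tau libraries. In PS19 replicate 1 it went from 75.0% of microglia with 500 to 1000 UMIs to 16.9% of those with 4000 or more. In WT replicate 1 it went from 94.1% to 65.4% over the same range. Absence of a UMI at these depths does not show that a nucleus lacked the transcripts. Thinned to 2000 UMIs, the share was 94.6% ± 1.35 in WT and 39.4% ± 22.1 in PS19.

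The second question was whether the 6-gene-negative microglia of tau mice differed from those of mice without tau. They differed in MHC class I, interferon, activation and homeostatic genes. UMIs of members were summed per library and 10572 genes outside the rule were tested with edgeR's quasi-likelihood test, all 14 libraries in 1 fit with sex as a covariate; every adjusted p below is from that test with Benjamini-Hochberg adjustment over all genes. Averaged over both backgrounds, 518 genes differed with tau at an adjusted p under 0.05, 4.90% of those tested, with 291 higher (2.75%) and 227 lower (2.15%). For PS19 against WT alone there were 392 (3.71%), 212 higher (2.01%) and 180 lower (1.70%). This count was 122 without WT replicate 2, 130 without PS19 replicate 2, 159 without PS19 replicate 1 and 212 without WT replicate 1. It was 125 with a block for 3 sets of libraries clustered on their granule neurons in place of sex. Those sets were the female libraries, PS19 replicate 2 alone and the rest. This block therefore amounts to sex with PS19 replicate 2 set apart, and is no separate check. Of the 392 genes, 92 were called in every fit that left out 1 library. The averaged count was 306 without WT replicate 2, 336 without PS19 replicate 1 and 294 without PS19 replicate 2. Of the 518, 496 could be tested without the nuclei with T cell RNA and 439 were called then; all 496 kept their direction. Counting each close pair as 1 sample, 366 genes were called, and without the 4 libraries 477. In members with 2500 or more UMIs, 26 to 138 nuclei a library, 103 genes were called.

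Among MHC class I genes, which load and carry peptides for display to T cells, several were higher with tau averaged over backgrounds. All 15 listed were tested, 7 rose and none fell, where 2.75% of all genes rose. The median log2 difference was 0.81 against -0.01 over all genes tested. In CLEAR_PS19 against CLEAR none of the 15 passed, and the median was 0.63. H2-D1, a classical class I heavy chain (chr17:35262730-35267499), was at 38.8, 29.5 and 27.6 CPM in the WT libraries, 213, 211 and 88.9 in the PS19 libraries, 46.2, 70.5, 42.8 and 44.8 in CLEAR, and 128, 150.1, 150.3 and 45.0 with both. PS19 lay wholly above WT, and the female CLEAR_PS19 library lay within the CLEAR range. The log2 difference was 1.74 (SE 0.18, edgeR adjusted p = 6.76e-05).

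H2-K1, the other classical heavy chain (chr17:33996017-34000347), was at 47.8, 22.1 and 29.0 CPM in WT, 173, 163 and 105.0 in the PS19 libraries, 51.5, 70.5, 27.6 and 42.7 in CLEAR, and 100.5, 101, 124 and 62.4 with both. It rose by 1.55 on the log2 scale (SE 0.18, edgeR adjusted p = 0.00016), and again only the female CLEAR_PS19 library overlapped CLEAR. B2m, the shared light chain (chr2:122147686-122153083), averaged 59.3 ± 13.3 CPM in WT, 156 ± 41.4 in PS19 (SD, n = 3 each), and, on the mutant background, 95.2 ± 24.5 and, with tau, 130.3 ± 28.5 (n = 4 each), a rise of 0.91 (SE 0.15, edgeR adjusted p = 0.00167). Nlrc5, the transactivator of class I genes (chr8:94434356-94527272), averaged 11.8 ± 6.8 CPM in WT and 104 ± 61 in PS19 and rose by 2.46 (SE 0.44, edgeR adjusted p = 0.00277). H2-Q4, a non-classical heavy chain, rose by 1.89 (SE 0.31, edgeR adjusted p = 0.00179). H2-Q6 and H2-Q7 passed the test as well, but neither could be tested without the T cell nuclei, and heavy chains this alike can exchange reads, so single members of the H2-Q group are uncertain. The other 5 called genes hold without those nuclei, with H2-D1 at 1.67 (edgeR adjusted p = 5.35e-05) and H2-K1 at 1.40 (edgeR adjusted p = 0.000303). Of MHC class II genes, which present to helper T cells, 3 of 7 were tested and none passed; Cd74 averaged 1.81 CPM in WT and 45.2 in PS19 and passed only in PS19 against WT.

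Many interferon response genes were higher too. Of 34 listed, 24 were tested, 20 rose and none fell, all 24 had positive differences, and the median was 1.17. Over all genes tested 2.75% rose. Genes without UMIs in WT, such as Oas2, could pass the filter on low counts mostly through the tau libraries. The count and median are therefore partly set by that filter, and the values of single genes are given below. Sp100, a nuclear body protein (chr1:85649988-85709998), was at 25.8, 20.7 and 37.3 CPM in WT, 139.7, 211 and 92.9 in the PS19 libraries, 18.5, 17.0, 24.8 and 46.9 in CLEAR, and 48.2, 51.6, 84.0 and 71.1 with both. Both tau groups lay wholly above their controls, and the rise was 1.82 (SE 0.25, edgeR adjusted p = 0.000523).

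Ifi44, an antiviral gene (chr3:151730922-151749960), was absent from 1 WT and 3 CLEAR libraries, reached 27.1 CPM in the highest library without tau, and was at 24.4 to 80.1 CPM in the 7 with tau. Its log2 difference was 3.25 (SE 0.47, edgeR adjusted p = 0.000686). Usp18, which removes the ubiquitin-like ISG15 from proteins, averaged 6.8 ± 6.3 CPM in WT, 41.9 ± 17.0 in PS19, 5.6 ± 2.2 in CLEAR and 19.8 ± 10.7 with both, and rose by 2.15 (SE 0.39, edgeR adjusted p = 0.00322). Oas2, a sensor of double-stranded RNA, had no UMI in any WT library and averaged 27.3 CPM in PS19 and 10.2 in CLEAR_PS19. Trim30a, which passed on average over both backgrounds, had unlike values on them: it averaged 128 ± 13.5 CPM in WT and 293 ± 75.8 in PS19, against 112 ± 8.03 in CLEAR and 129 ± 38.4 with both. Its averaged difference was 0.69 (SE 0.15, edgeR adjusted p = 0.0116), while the difference between backgrounds was -1.004 and did not pass the test (edgeR adjusted p = 0.594). In members with 2500 or more UMIs only 13 of the 34 interferon genes could be tested and 3 were called.

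The PYHIN genes on chromosome 1, DNA sensors induced by interferon, were listed apart. Of 14 listed, 7 were tested and 6 rose (Ifi203, Ifi204, Ifi207, Ifi209, Ifi213 and Mndal). Of the 12 in the files, 4 to 9 were at 0 in WT libraries and 2 in PS19, so some could pass the filter on low counts only through the tau libraries, and the count is no support for a direction. The same filter applied to every list. Ifi204 (chr1:173747293-173766943) was at 11.6, 1.48 and 15.2 CPM in WT, 123, 235 and 101 in the PS19 libraries, 2.64, 6.52, 6.90 and 14.9 in CLEAR, and 36.3, 37.3, 90.2 and 50.8 with both. All 7 libraries with tau lay above all 7 without it, and the rise was 3.33 (SE 0.37, edgeR adjusted p = 8.95e-05). Without the T cell nuclei it was 3.36 (edgeR adjusted p = 9.21e-05), whereas Ifi203 and Mndal could not be tested then. These genes are close copies, so reads may be split or misplaced among them.

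Promoter sequence was read for the genes of these groups from RefSeq windows on GRCm38.p6, which run from 250 bases before to 50 after a gene's start. The interferon-stimulated response element was searched on both strands as GAAA, any 2 bases and GAAA again, overlapping matches included. It occurs in 3.44% of all 32851 promoter windows, or 3.99% of genes. Of the 20 interferon genes that rose, 13 had a window and 6 held the motif (Ifit3, Oas1a, Stat2, Trim30a, Slfn8 and Eif2ak2). Of the 7 class I genes that rose, 6 had a window and only B2m held it; of the 6 PYHIN genes, 5 had a window and 4 held it (Ifi203, Ifi207, Ifi213 and Mndal). A match describes letters in the window and is not evidence of binding. The stretches below are shown to let a reader see the element before the start of a class I, 2 antiviral and 3 PYHIN genes that rose together; capitals mark the motif as read on the gene's strand, where a match on the other strand reads TTTC, 2 bases and TTTC. They lie at chr2:122147518-122147587 (B2m, + strand), chr19:34583343-34583446 (Ifit3, +), chr5:120907526-120907575 (Oas1a, -), chr1:173599306-173599375 (Ifi213, -), chr1:173942493-173942557 (Ifi203, -) and chr1:173880188-173880253 (Mndal, -).
B2m: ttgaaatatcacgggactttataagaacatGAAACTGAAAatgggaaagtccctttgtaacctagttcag
Ifit3: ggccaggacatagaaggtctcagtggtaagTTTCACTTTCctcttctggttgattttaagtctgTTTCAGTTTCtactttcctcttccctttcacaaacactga
Oas1a: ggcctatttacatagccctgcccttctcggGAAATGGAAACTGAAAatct
Ifi213: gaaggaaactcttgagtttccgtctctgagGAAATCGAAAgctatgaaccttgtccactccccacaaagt
Ifi203: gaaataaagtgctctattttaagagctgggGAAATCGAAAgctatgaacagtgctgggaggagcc
Mndal: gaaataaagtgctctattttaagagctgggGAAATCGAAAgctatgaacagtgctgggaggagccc
Ifit3 and Oas1a hold 2 matches each, and those of Oas1a overlap. The 65 bases of Ifi203 are the first 65 of the 66 of Mndal, which shows how alike these copies are. The motif begins 139 bases before the start of B2m, 20 before Oas1a, 35 before Ifi203 and 36 before Mndal.

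**Figure D2:**
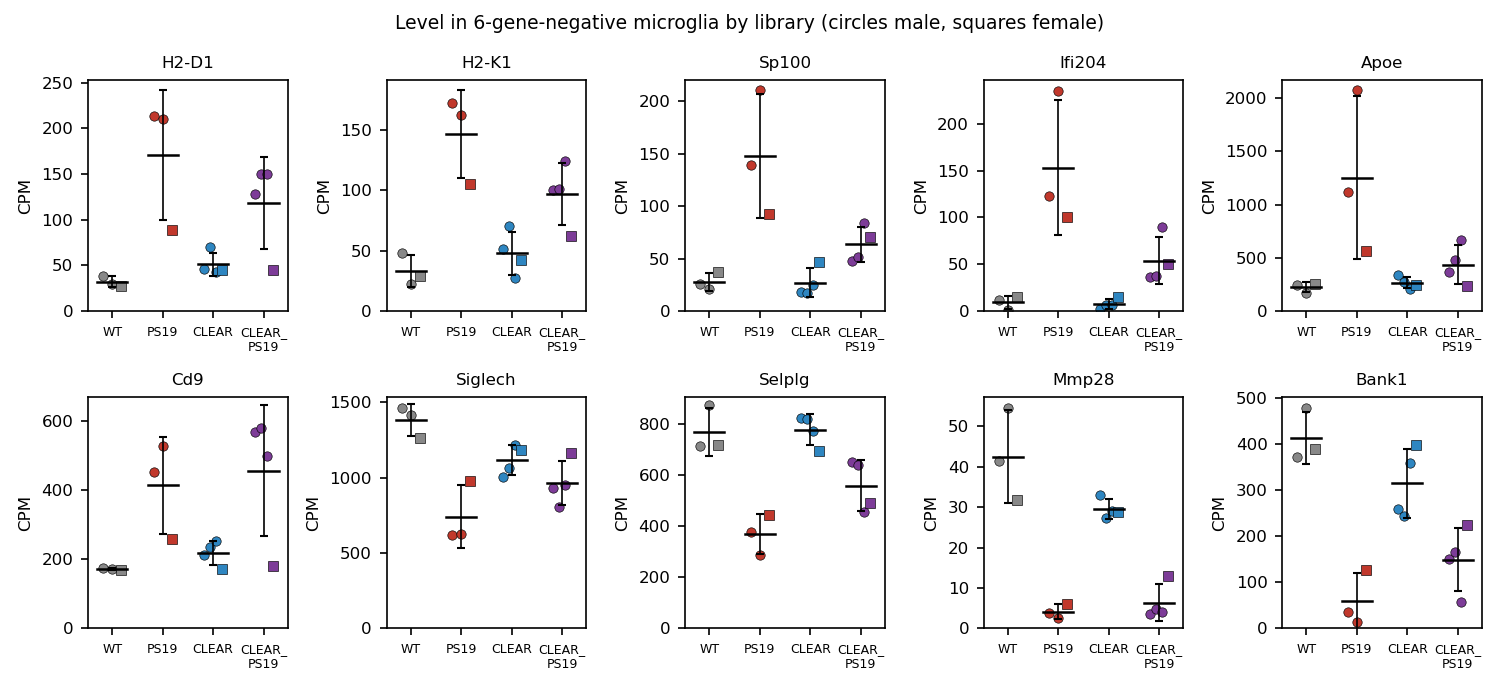
Level of 10 genes in 6-gene-negative microglia (TMM-normalised CPM) by group; each point is a library (circles male, squares female), lines and bars are mean ± SD. H2-D1, H2-K1, Sp100, Ifi204, Apoe and Cd9 are higher, and Siglech, Selplg, Mmp28 and Bank1 lower, in all 3 PS19 libraries than in all 3 WT libraries; CLEAR_PS19 overlaps CLEAR for H2-D1, H2-K1, Apoe, Cd9 and Siglech.

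Activation genes other than the 6 of the rule were higher with tau in these nuclei, which were chosen for no detected UMI of those 6. Absence of a UMI does not show that a nucleus lacked the transcripts. The part of nuclei whose transcripts of the 6 genes went undetected was not tested. Of 36 listed, 31 were tested, 21 rose, none fell, and the median was 0.98. Of the 35 in the files, 5 to 7 were at 0 in WT libraries and 0 to 1 in PS19, so genes such as Gpnmb passed the filter on low counts mostly through the tau libraries, and the count and median are partly set by that filter. Apoe, the main lipid carrier of the brain (chr7:19696109-19699188), was at 243, 173 and 258 CPM in WT, 1120.0, 2075 and 565 in the PS19 libraries, 337, 277, 211 and 246 in CLEAR, and 362, 477, 667 and 235.0 with both. PS19 lay above WT in every library, CLEAR_PS19 overlapped CLEAR, and the rise averaged over backgrounds was 1.496 (SE 0.23, edgeR adjusted p = 0.000896).

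Cd9, a tetraspanin of the cell surface (chr6:125460266-125494791), was at 174, 173 and 168 CPM in WT, 455, 529.8 and 259 in the PS19 libraries, 214, 235, 252 and 173 in CLEAR, and 569, 582, 499.7 and 179.9 with both, a rise of 1.10 (SE 0.15, edgeR adjusted p = 0.000581). The female library was the lowest in all 4 groups. Lyz2, lysozyme of myeloid cells, averaged 6.8 ± 3.3 CPM in WT, 67.4 ± 58.6 in PS19, 15.1 ± 7.0 in CLEAR and 44.0 ± 13.2 with both, and rose by 2.32 (SE 0.33, edgeR adjusted p = 0.000629). Cst7, a cathepsin inhibitor, averaged 0.49 CPM in WT and 15.3 in PS19, and Gpnmb, a late activation gene, 0 and 15.4, so both remained rare in these nuclei. Trem2, the lipid receptor that licenses the disease-associated state, averaged 175 CPM in WT and 184 in PS19 and did not pass (log2 difference 0.21, edgeR adjusted p = 0.693). Serpine2, which had been listed as homeostatic, averaged 148 ± 30.8 CPM in WT and 239 ± 64.3 in PS19 and rose by 0.54 (SE 0.11, edgeR adjusted p = 0.00821), with PS19 overlapping WT. The part of free RNA in these levels was not tested: Apoe was detected at 1000 UMIs in 3.29% to 13.4% of granule neurons and 14.5% to 77.3% of members.

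Some homeostatic genes fell with tau. All 28 listed were tested. Averaged over backgrounds 8 fell and 1 rose (Serpine2), where 2.15% of all genes fell and 2.75% rose. The median was -0.40 against -0.01 over all genes tested. In CLEAR_PS19 against CLEAR none passed and the median was -0.13. Siglech (chr7:55768178-55778925) was at 1463, 1416 and 1265 CPM in WT, 618, 623 and 979 in the PS19 libraries, 1006, 1061, 1214 and 1184 in CLEAR, and 933, 808, 953 and 1162 with both. PS19 lay wholly below WT and CLEAR_PS19 overlapped CLEAR; the difference was -0.58 (SE 0.11, edgeR adjusted p = 0.00344). Selplg (chr5:113818536-113832644) was at 712, 874 and 716 CPM in WT, 376, 288 and 444 in the PS19 libraries, 822, 817, 772 and 691 in CLEAR, and 649, 638, 453 and 489 with both, so that both tau groups lay below their controls, with a difference of -0.76 (SE 0.12, edgeR adjusted p = 0.000955).

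P2ry12 (chr3:59216272-59262871) averaged 1235 ± 172 CPM in WT, 737 ± 126 in PS19, 1144 ± 236 in CLEAR and 1084 ± 151 with both. It passed in PS19 against WT (-0.72, SE 0.18, edgeR adjusted p = 0.0296; called in 18 of 27 alternatives, and lost without any 1 WT library or without PS19 replicate 1 or 2) and not averaged over backgrounds (-0.40, edgeR adjusted p = 0.0611). Tgfbr1, the TGF-beta receptor, averaged 2942 ± 458, 2035 ± 210, 2898 ± 299 and 2526 ± 150 CPM in the same order and fell by 0.37 (SE 0.08, edgeR adjusted p = 0.0164), a call held in 21 of 27 alternatives and lost with each close pair as 1 sample (edgeR adjusted p = 0.0661) and without WT replicate 2 or PS19 replicate 2. Sall1, the transcription factor of microglial identity, averaged 310 ± 12.6 CPM in WT and 209 ± 12.8 in PS19 and fell by 0.39 (SE 0.09, edgeR adjusted p = 0.0124). Slc2a5, a fructose transporter, fell by 0.82 (SE 0.14, edgeR adjusted p = 0.00256) and Sparc, a matrix protein, by 0.65 (SE 0.16, edgeR adjusted p = 0.0243). The call for Sparc held in 19 of 27 alternatives. It was lost without WT replicate 2, PS19 replicate 1 or 2, CLEAR replicate 1 or CLEAR_PS19 replicate 4. The call for Sall1 held in 23 of 27, with differences from -0.452 to -0.141. Among the fits that lost it was the one without PS19 replicate 2. Slco2b1 and Upk1b also passed. Cx3cr1 and Cst3 did not, with differences of -0.32 and -0.48. With each close pair as 1 sample, 5 of the 28 fell, and in members with 2500 or more UMIs 1 of 27. Over all genes these fits called 366 and 103 in either direction, and a single call is no support for a direction of the list.

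The TFEB site itself, searched as TCACGTGA on both strands, lies in 0.974% of promoter windows. Among the 8 homeostatic genes that fell, 6 had a window and Siglech alone held it. Its stretch at chr7:55768097-55768164 (+ strand) is shown because Siglech stood highest over the other nuclei among genes outside the rule; capitals mark the motif, which begins 57 bases before the start.
Siglech: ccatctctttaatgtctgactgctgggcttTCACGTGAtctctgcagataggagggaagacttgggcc
Of 19 tested V-ATPase genes, 14 had a window and 3 held the motif (Atp6v1a, Atp6v0d1 and Atp6v0e).

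Lysosomal and V-ATPase genes were followed next. Of 54 lysosomal genes 49 were tested, 7 rose (Ctsz, Ctsc, Cd63, Npc2, Galc, Ctsb and Lamp2), none fell, and the median was 0.25. Ctsb, cathepsin B (chr14:63122462-63145923), averaged 134 ± 30.7 CPM in WT, 244 ± 55.7 in PS19, 155 ± 39.8 in CLEAR and 255 ± 73.7 with both, and rose by 0.79 (SE 0.17, edgeR adjusted p = 0.0115). Of 20 V-ATPase genes 19 were tested and 1 rose, where 2.75% of all genes did. It was Atp6v1b2, a subunit of the catalytic domain, by 0.64 (SE 0.14, edgeR adjusted p = 0.00936). Atp6v1h, the gene understood to carry the mutated element (chr1:5070018-5162529), was at 98.2, 103 and 86.9 CPM in WT, 103, 123 and 117 in the PS19 libraries, 96.3, 78.3, 74.5 and 81.0 in CLEAR, and 73.3, 62.1, 86.1 and 88.5 with both. Among the 8 libraries with the mutation, 2 lay within the range of the 6 without it, and neither the tau difference (0.07, edgeR adjusted p = 0.842) nor CLEAR against WT (-0.22, edgeR adjusted p = 0.896) passed. Of 18 tested genes of the TFEB family and its regulators, Mitf, a close relative of TFEB, rose by 0.60 (SE 0.14, edgeR adjusted p = 0.0174; lost without WT replicate 1 or PS19 replicate 1 or 2) and Fnip1 rose too; the list's median was 0.05.

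In other lists a few genes passed. Over all genes 2.75% rose and 2.15% fell, so that 1 call in a list of about 10 is near the background and is given as a value of that gene only. Of 20 tested cytokine and Toll-like receptor genes 4 rose: Tlr2, Cxcl16, Ccl12 and Tnf. Ccl12, a monocyte-attracting chemokine, averaged 8.2 ± 6.3 CPM in WT, 62.4 ± 31.9 in PS19, 12.3 ± 4.5 in CLEAR and 40.6 ± 18.2 with both (log2 difference 2.24, SE 0.31, edgeR adjusted p = 0.000581). Tnf averaged 2.27 CPM in WT and 17.3 in PS19, and 1.65 and 22.9 on the CLEAR background. Of 13 tested lipid handling genes 6 rose (Soat1, Fabp5, Nceh1, Abca1, Apoe and Npc2), and of 15 complement and phagocytosis genes C3ar1 rose and Itgam fell. Of 15 lineage transcription factors Nfia and Sall1 fell, of 12 TGF-beta genes Tgfbr1 fell, of 11 purinergic genes P2rx4 rose and of 9 immediate early genes Ier2 rose. Only 3 of 23 cell cycle genes reached a testable level and none passed. Many markers of other cells were too low to test. Averaged over backgrounds, none passed of the 8 of 8 oligodendrocyte, 3 of 5 precursor, 5 of 7 astrocyte, 6 of 6 excitatory and 2 of 5 inhibitory neuron, 1 of 8 vascular and 1 of 8 granulocyte and B cell markers tested. Of 2 of 10 border macrophage markers tested Stab1 fell, and of 4 of 10 T cell markers tested Skap1 and Themis rose. In PS19 against WT the tested vascular marker, Flt1, which is also in the activation list, rose (6.32 CPM in WT, 35.2 in PS19, edgeR adjusted p = 0.0321).

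Among the 10 genes with the largest rise with tau and at least 20 CPM in the higher group, 6, among them Gm2682, Atp8b4, Ms4a4b, Skap1 and Grap2, could not be tested once nuclei with T cell RNA were left out. Skap1, an adaptor of T cell receptor signalling, was at 119, 208 and 10.1 CPM in PS19 and at most 2.58 in WT. The other 4 (Gm15155, Cybb, Ctse and Ifi213) were still called. Ctse, cathepsin E, was at 0, 0 and 2.76 CPM in WT, 73.6, 98.2 and 22.2 in PS19, 3.96 to 6.90 in CLEAR, and 2.79, 8.60, 40.4 and 7.25 with both, so that PS19 lay far above WT and CLEAR_PS19 overlapped CLEAR. Cybb, the catalytic subunit of the phagocyte oxidase, was at 45.7, 59.4 and 8.08 CPM in PS19 and at most 1.38 in WT. With levels this low in WT, Ctse and Cybb could pass the filter on low counts mostly through the tau libraries. Their place among the largest rises is therefore partly set by that filter.

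Genes that fell most were not those of the homeostatic list. Mmp28, a matrix metalloprotease (chr11:83440768-83463071), was at 41.3, 54.6 and 31.7 CPM in WT, 3.81, 2.58 and 6.06 in the PS19 libraries, 33.0, 27.4, 29.0 and 28.8 in CLEAR, and 3.49, 4.78, 4.15 and 13.1 with both. No library with tau reached the lowest without it, and the difference was -2.81 (SE 0.28, edgeR adjusted p = 6.76e-05). Bank1, an adaptor best known from B cell receptor signalling (chr3:136053363-136326066), was at 372, 477 and 389 CPM in WT, 34.3, 12.9 and 127 in the PS19 libraries, 257, 244, 357 and 398 in CLEAR, and 151, 164, 57.0 and 223 with both, a difference of -2.04 (SE 0.27, edgeR adjusted p = 0.000445). Myo18b, an unconventional myosin, averaged 166 ± 16.1 CPM in WT, 21.7 ± 27.1 in PS19, 112 ± 13.1 in CLEAR and 77.2 ± 30.03 with both (log2 difference -1.77, SE 0.28, edgeR adjusted p = 0.00147). The other largest falls were in Gm31243, Ccdc162, 6030468B19Rik, Sema4b, Gm37876, Fam83g and Gm48614.

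The third question was whether tau had the same effect on both backgrounds. In CLEAR_PS19 against CLEAR only 5 genes passed (0.0473%): Gcnt2, Olfr111, Tnf and Ifi44 rose and Mmp28 fell, and with each close pair as 1 sample none did. At an unadjusted p under 0.05 there were 739. Gcnt2, a glycosyltransferase, was at 45.2, 41.3 and 52.4 CPM in WT, 77.5, 100.8 and 73.7 in the PS19 libraries, 37.0, 33.9, 34.5 and 28.8 in CLEAR, and 87.3, 78.4, 66.4 and 68.2 with both, without overlap on either background. Olfr111, an olfactory receptor gene, averaged 24.7 ± 13.8 CPM in WT, 128 ± 8.4 in PS19, 36.0 ± 11.4 in CLEAR and 112 ± 39.2 with both. In the fit with the replicate number as a block within each background, the count was 8. It was 26 in DESeq2, 24 with the replicate block and 33 with library groups as a block. Leaving out 1 library gave 0 (CLEAR replicate 1 or 2, or CLEAR_PS19 replicate 1) to 20 (CLEAR_PS19 replicate 4).

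Directions were nevertheless shared. Of the 212 genes higher in PS19 against WT, 204 (96.2%) were also positive in CLEAR_PS19 against CLEAR, and of the 180 lower ones 161 (89.4%) were also negative, against 60.6% of the same sign over all genes. These comparisons share no library but 1 estimate of the spread. Median differences were smaller on the CLEAR background: 0.72 against 1.82 for the higher genes and -0.27 against -0.97 for the lower ones, where PS19 against WT chose the genes. List medians in CLEAR_PS19 against CLEAR were 0.71 for activation genes, 0.96 for interferon genes, 0.63 for class I genes and -0.13 for homeostatic genes, against 1.19, 1.35, 1.15 and -0.70 in PS19 against WT. The difference between the backgrounds was tested gene by gene as an interaction, and no gene passed (0%; 625 at an unadjusted p under 0.05, and 3 in DESeq2). Without PS19 replicate 3 there were 18, without CLEAR_PS19 replicate 4 there were 8 and without CLEAR replicate 3 there were 2.

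**Figure D3:**
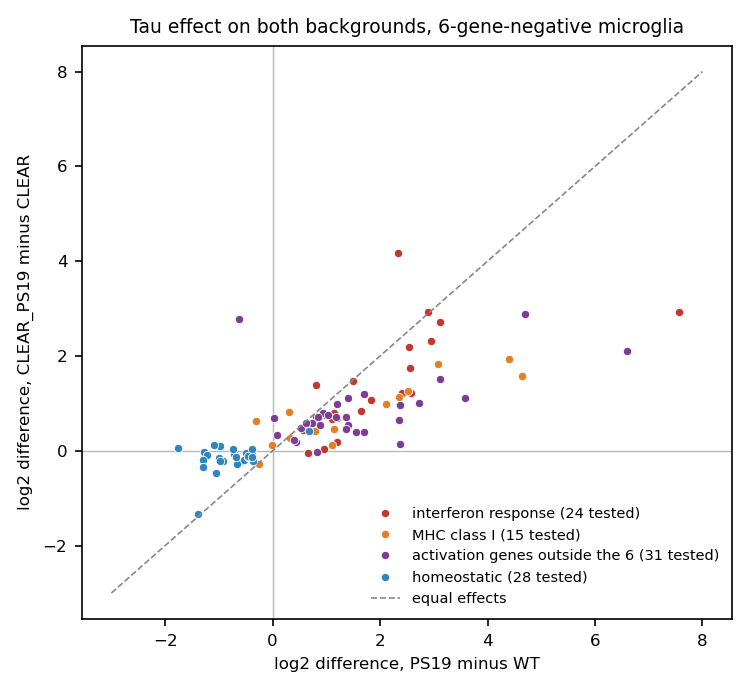
Log2 difference in PS19 against WT (x axis) and in CLEAR_PS19 against CLEAR (y axis) for tested genes of 4 lists in 6-gene-negative microglia; the dashed line marks equal differences. Most interferon, class I and activation genes lie right of 0 and below the line, and 27 of 28 homeostatic genes lie left of 0 on the x axis, with a median of -0.13 on the y axis.

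Few or no genes passed for the CLEAR mutation in the main fit. Many more passed with the replicate block, whose counts are given with the processing alternatives. Replicate numbers were not taken to pair libraries in these comparisons. CLEAR against WT gave no call (0%; 533 genes at an unadjusted p under 0.05, and none in DESeq2). CLEAR_PS19 against PS19 gave 1 (0.00946%; 1065 at an unadjusted p under 0.05, and 23 in DESeq2), and 121 without PS19 replicate 3, 128 without CLEAR_PS19 replicate 3 and 11 without CLEAR_PS19 replicate 4. The 1 was Gm20663, an uncharacterised gene at 34.9, 35.4 and 9.66 CPM in WT, 74.9, 73.7 and 24.2 in PS19, 8.53 to 22.1 in CLEAR and 5.59 to 11.6 in CLEAR_PS19. Of the 28 homeostatic genes 27 had positive differences in CLEAR_PS19 against PS19, with a median of 0.56, and of 24 interferon genes 23 had negative ones, with a median of -0.64; none of these genes passed. The 4 libraries that stand apart are all in the CLEAR groups, which also hold 4 that do not; without the 4, CLEAR against WT and CLEAR_PS19 against PS19 gave 0 calls each.

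The tau effect in these nuclei was also set against that in the 133103 barcodes of the same libraries that were not microglia. Of 21013 genes tested, 788 had a tau effect that differed between the classes (3.75%), 405 more positive in the 6-gene-negative microglia and 383 more negative. Rai14, an actin-binding protein, was at 3.88, 1.48 and 2.76 CPM in WT members, 115.5, 137 and 35.3 in the PS19 libraries, 7.92, 7.83, 9.65 and 13.9 in CLEAR, and 16.8, 34.4, 64.3 and 24.7 with both. Its tau effect was 3.33 in members and 0.47 in the other nuclei, a class difference of 2.88 (SE 0.29, edgeR adjusted p = 1.03e-08). Myo5a, a myosin that moves vesicles, averaged 36.3 CPM in WT and 268 in PS19 members and 175 and 188 in other nuclei, with a class difference of 1.93 (SE 0.20, edgeR adjusted p = 2.46e-08).

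Bank1 differed in the opposite direction (-2.11, SE 0.21, edgeR adjusted p = 1.03e-08), with no tau effect passing in other nuclei (0.09, edgeR adjusted p = 0.846). Apoe rose more in the members than in the other nuclei (class difference 1.47, edgeR adjusted p = 1.9e-07), where it averaged 147 CPM in WT and 195 in PS19. For Ctss, an abundant microglial transcript, the estimate was larger in the other nuclei. Its tau effect was 0.26 in the members (edgeR adjusted p = 0.279) and 1.71 in other nuclei, where it averaged 2.49 CPM in WT and 12.98 in PS19. H2-D1 rose in both classes, by 1.74 in members and 1.22 in other nuclei (edgeR adjusted p = 0.00844), and the class difference of 0.51 did not pass (edgeR adjusted p = 0.0697). The share of microglia among barcodes rose alongside, from 4.21% ± 0.63 in WT to 11.7% ± 3.34 in PS19, and its part in the counts of other nuclei was not tested.

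Against activated microglia of the same libraries, the members are described without a test, because the rule separates the 2 states by measured genes and the deeper nuclei fall on the activated side. In 13 libraries with 20 or more nuclei of each state, 222 of 4596 genes at 50 CPM or more had the same sign throughout, 167 higher and 55 lower in the 6-gene-negative nuclei. Highest by median log2 ratio were Bank1 (1.31), Slc2a5 (1.25), Ighm, Lst1, Gm6277, Ltc4s, Plxna4, Gm31243, Itga9 and Rhobtb1. Lowest were Lilrb4a (-2.03), an inhibitory immune receptor, Alcam (-1.61), March3, Myo1e, Acaca, Trps1, Lama2, Cdh19, Plekhh1 and Mir100hg. In the 7 tau libraries Bank1 averaged 110.4 ± 76.5 CPM in members and 34.4 ± 23.5 in activated nuclei, against 352 ± 74.4 in members without tau. Lilrb4a averaged 75.5 ± 60.4, 290 ± 93.6 and 10.9 ± 4.2 CPM in the same order. For both genes the mean of tau members lay between members without tau and activated nuclei, as it did for all 10 of the highest genes and 6 of the 10 lowest. It did not for Lama2, Cdh19, Plekhh1 and Mir100hg, where tau members were below members without tau. These genes were chosen for the same sign against activated nuclei in every compared library, so that side was fixed in advance. Only the order of members with and without tau was open, and it is given as a description. Markers of other cells were also higher in activated nuclei in some groups: oligodendrocyte markers summed to 1694 CPM in members and 4610.0 in activated nuclei in WT, 1696 and 3964 in CLEAR, 1755 and 3506 with both, and 1608 and 1717 in PS19. Astrocyte markers summed to 1086 and 3622 CPM in WT, 731.1 and 1423 in CLEAR, 544.2 and 597.2 with both, and 1049 and 1087 in PS19. The part of this RNA in the listed genes was not tested.

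Gene lists were also followed along the number of activation UMIs. The summed level of the activation list was 2829 to 3408 CPM in WT members. In PS19 replicate 1 it was 7350 CPM in members and 8414, 9632 and 11430 in nuclei with 1, 2 and 3 or more UMIs of the 6 genes; in replicate 2 it was 8911, 10100, 10720 and 12870, and in replicate 3 5031, 6312, 8076 and 9494. Each PS19 library thus climbed with every step, from a member level above all WT libraries. The steps count UMIs of activation genes and depend on depth, so the climb is a description without a test. In WT replicate 1 the list went from 3408 CPM in members to 4074 in 28 nuclei with 1 UMI. In WT replicate 3 the list went from 3262 to 3079 in 23 such nuclei. CLEAR_PS19 members were at 6684, 6695, 6929 and 3988 CPM, the last within the CLEAR range of 3211 to 4572. The homeostatic list summed to 18570 to 20570 CPM in WT members and to 12110, 12060 and 14830 in PS19 members, and in PS19 nuclei with 3 or more UMIs to 10760, 11000 and 10960. On the CLEAR background it summed to 18850 to 22400 CPM in members without tau and to 22450, 22220, 16290 and 16040 in those with it, so that these groups overlapped.

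MHC class I differed between libraries along the same steps. It summed to 324 to 361 CPM in WT members, to 1130, 1230 and 598 in PS19 members, and to 970.4, 1152 and 751 in PS19 nuclei with 3 or more UMIs of the 6 genes. In CLEAR_PS19 replicates 1 and 2, the close pair, it went from 689.6 and 735 to 1234 and 1200.0, on 40 and 29 nuclei at 3 or more UMIs. In CLEAR_PS19 replicate 3, with 215 such nuclei, it went from 778 to 759. The interferon list went from 1758, 2585 and 1641 CPM in PS19 members to 1986, 3296 and 2299 at 3 or more UMIs, against 619 to 975 in WT members.

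**Figure D4:**
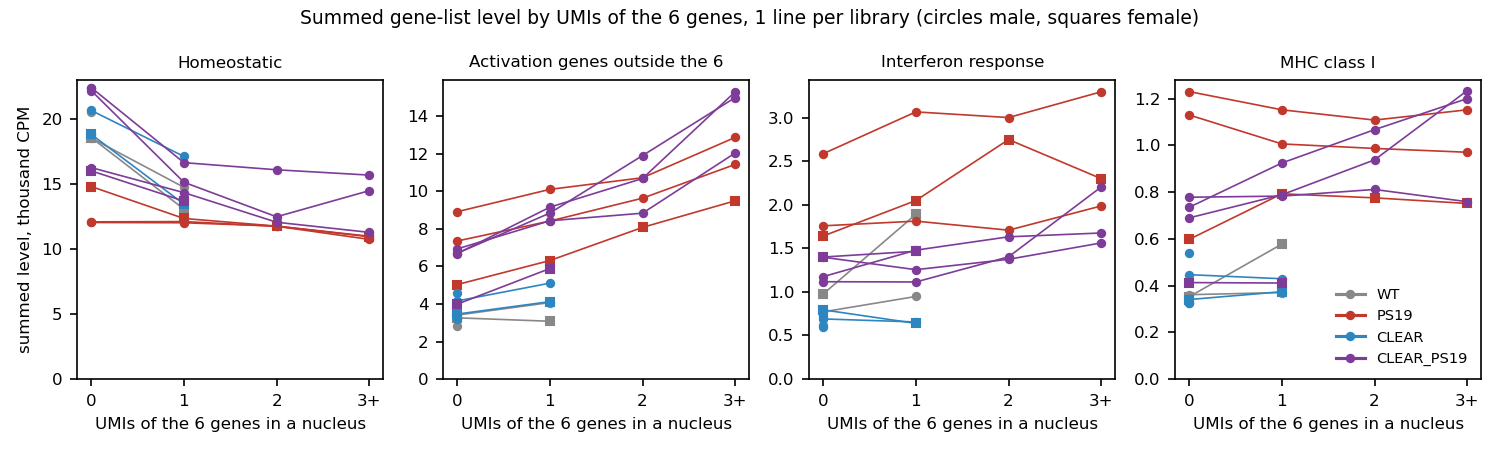
Summed level of 4 gene lists (CPM divided by 1000, y axis) in microglia with 0, 1, 2 and 3 or more UMIs of the 6 genes (x axis), 1 line per library with at least 20 nuclei at the step (circles male, squares female). Activation genes climb with every step in the 3 PS19 libraries, from 5031 to 8911 CPM at 0. The steps count UMIs of other activation genes, so the climb is a description without a test. Class I genes in PS19 are at 598 to 1230 CPM at 0 and 751 to 1152 at 3 or more.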

How the data were processed

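Nuclei of 14 libraries were read from the authors' deposited matrices of UMI counts. Per the file headers, Cell Ranger 5.0.1 wrote them. The submitters' processing notes also name Seurat and the mouse build mm10. Whether intronic reads were counted is not given in the sources used here. Bulk libraries (21) were not used. The members and gene lists were chosen with earlier results of these data known. UMIs of members were summed per library, and the deposited counts were tested with edgeR 4.0.16 (R 4.3.3; filterByExpr, TMM, quasi-likelihood, 4 groups and sex, threshold 0.05), with DESeq2 1.42.0 as an alternative. CPM of named genes are TMM-normalised; summed list levels are plain CPM. The 19 rule genes stayed in library sizes and out of tests. Shares of nuclei are described without the planned exact permutation test, since they count the rule's own genes. Named genes were, per comparison, the 10 largest called changes in each direction at 20 CPM or more, genes of fixed lists, and the genes leading the class comparison. Of 32285 genes, 32235 matched the GRCm38 annotation; 4 list genes were not analysed here. Doublets were called per library (520 members) and kept, and left out in an alternative. On simulated counts for the tau comparison (10293 genes), 91% of genes changed by log2 1 and 100% of those changed by log2 2 were recovered, and 5% of calls were false. Only genes with a mean over 20 CPM were changed, equally on both backgrounds, and the simulated libraries were independent. The real libraries hold close pairs. For genes called in PS19 against WT, median differences were also smaller on the CLEAR background, although no gene passed the interaction test. These rates therefore need not hold for the real libraries. The main fit did not pair libraries, and replicate numbers were used only in the alternatives with a replicate block. Deviations of same-numbered libraries from their group means had r = 0.134, 0.152 and 0.355 for WT and PS19. For CLEAR and CLEAR_PS19 they had r = 0.339, 0.216, 0.156 and 0.438. The highest r of each set was that of the female libraries. Libraries with unlike numbers were not compared in this way, so these values do not show pairing. Each r is across genes, which are not independent. UMI totals per library were 45090232 to 96045023. Results for some genes are not reported here.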

Additional observations from a re-analysis of the deposited data

Results flagged for a closer look

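Within groups of 4, a library was marked when its gap to its neighbour exceeded Dixon's 95% critical value; 10 of 80 such groups were marked, where chance gives about 1 in 20, and both groups of 4 hold a close pair. CLEAR_PS19 replicate 3 stood apart by its 6-gene-negative share of microglia (63.6%), and by its CPM of Myo5a (249.8), Ctse (40.4) and Gm15155 (98.5). CLEAR_PS19 replicate 4, the female library, stood apart for Tnf (49.3 CPM), Mmp28 (13.1) and Tgfbr1 (2750.0). CLEAR replicate 4, also female, stood apart for Tgfbr1 (3345 CPM) and Ifi44 (7.46), and CLEAR replicate 2 for H2-D1 (70.5).

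The tau effect differed between 6-gene-negative microglia and other nuclei in 788 genes by the test of that difference (edgeR).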

How the results depend on the processing

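All 518 genes called for tau kept their direction wherever they were tested, and 237 were called in every fit that left out 1 library. With the replicate block the counts were tau 663, PS19 against WT 522, CLEAR_PS19 against CLEAR 24, CLEAR against WT 104 and CLEAR_PS19 against PS19 622. The last 2 comparisons were not taken as paired by replicate number, and pairing was not shown in the others. A replicate block within background (added after seeing the data) gave 613 for tau, 483 for PS19 against WT and 8 for CLEAR_PS19 against CLEAR. It gave 0 for the interaction. For tau, blocking on granule sets gave 295, thinning nuclei to 2000 UMIs 313 and members with 2500 or more UMIs 103. For PS19 against WT these gave 125, 218 and 61, no sex covariate 254 and the library group as a block 623. For CLEAR_PS19 against CLEAR, DESeq2 gave 26, a filter of 10 counts 12, no sex covariate 2, granule sets 9, thinning 11, no doublets 12, library group 33, without the 4 libraries 1 and close pairs as 1 sample 0. For CLEAR_PS19 against PS19, DESeq2 gave 23, the 10-count filter 3, no sex covariate 0, without the 4 libraries 0, thinning 18, no doublets 9 and 2500 or more UMIs 4. The interaction had 3 with DESeq2, 3 with thinning and 1 with the library group; the class comparison had 284 at 2500 or more UMIs. The tau difference in the 6-gene-negative share was -30.846 points without the 4 libraries. In the share of all barcodes it was 1.586 with only Axl, Itgax and Lpl and -0.004 with 1000 or more genes, and the CLEAR difference was -0.339 and -0.415 when thinned to 1000 and 2000 UMIs. The cause was not tested.

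Leaving out 1 library at a time gave 294 (PS19 replicate 2) to 633 (PS19 replicate 3) genes for tau, 122 (WT replicate 2) to 527 (PS19 replicate 3) for PS19 against WT, 0 to 20 for CLEAR_PS19 against CLEAR, 0 to 1 for CLEAR against WT, 1 to 128 (CLEAR_PS19 replicate 3) for CLEAR_PS19 against PS19, 0 to 18 for the interaction and 556 to 1147 for the class comparison. The share differences were -33.481 to -25.032 (tau) and 9.433 to 17.882 (CLEAR) points of microglia, and -0.165 (PS19 replicate 3, a change of sign) to 0.609 and 0.435 to 1.21 points of all barcodes.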
